A study of Arabidopsis thaliana with 12 samples.

Results

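Plastid-encoded genes are the genes of the chloroplast's own circular genome, and they were taken as every row with a locus identifier starting ATCG in the authors' deposited expression and splicing tables. They came to 44 genes of the 9555 genes that 3 expression tables list, and to 6 introns among the 6003 features of the red-light splicing table. RefSeq annotates 129 plastid genes on the genome of 154478 bases, of which 85 encode proteins, 37 transfer RNAs and 7 ribosomal RNAs. The expression table for the dark listed 23 plastid genes, that for red light 19, and that for the response of the mutant to light 31. No plastid intron was among the 6244 features of the dark splicing table or the 843 of the light-response splicing table.

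The series compares Arabidopsis thaliana seedlings of the wild type Col-0 with the mutant rrc1-3 in the Col-0 background. All seedlings grew in darkness until day 4, and the red-light groups were then lit for 3 h at a fluence rate of 7 µmol m-2 s-1. Ribosomal RNA was removed from total seedling RNA, which gave 12 libraries in 4 groups of 3, Col-0 dark, Col-0 red light, rrc1-3 dark and rrc1-3 red light. The labels do not say that the 3 libraries of a group came from separately grown cultures, so p-values measure the spread between these libraries, which may be technical. RRC1 encodes an SR-like splicing factor that acts in phytochrome B signalling.

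The plastid of a dark-grown seedling is an etioplast, which light turns into a chloroplast. Its genome encodes core subunits of the photosystems, the cytochrome b6f complex, the ATP synthase and the NDH complex, besides part of the plastid ribosome and the core of the plastid-encoded RNA polymerase. A second, nuclear-encoded polymerase also transcribes it, most genes are read in long multi-gene transcripts, and nuclear-encoded proteins cut, edit and splice these transcripts. The rRNA genes and several neighbours lie in an inverted repeat, so that reads from them match at 2 places.

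The gene named by the mutant was checked first. RRC1 (AT5G25060) had no row in an expression table, but 4 of its features stood in the dark splicing table and 7 in the red-light one. Its intron at chromosome 5, positions 8634834 to 8635302, was retained at 3.24% to 4.95% in the 3 Col-0 dark libraries and at 88.6% to 98.4% in the 3 rrc1-3 dark libraries. Under red light the same intron was retained at 0.602% to 4.74% in Col-0 and at 88.7% to 97.6% in rrc1-3. Every library thus stood on the side of its label.

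Every plastid gene listed for a difference between the genotypes was higher in rrc1-3. In the dark this held for 23 of 23 plastid genes and under red light for 19 of 19, while 55.3% of all genes in the authors' deposited table for the dark and 51.6% in that for red light were higher in rrc1-3 (44.7% and 48.4% were lower). The listed genes made up 17.8% of the annotated plastid genes in the dark and 14.7% under red light, against 14.7% and 10.5% of all genes that RefSeq annotates. The tables list only genes that the authors called, with an absolute log2 change of at least 0.58, so a plastid gene missing from them either did not pass or was not tested. The deposited FPKM (fragments scaled by gene length and library size) is 1 pooled value per group, so it carries no spread between libraries and its depth is unknown. How library size was scaled is not given in the sources used here.

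The 2 genotype tables share no library, and 15 plastid genes stood in both, which is 65.2% of the dark list and 78.9% of the red-light list. The same shares over all listed genes were not computed, so the overlap is not read as particular to plastid genes. The median log2 change over the listed plastid genes was 0.93 in the dark and 1.08 under red light in the authors' deposited tables. Without the rRNA rows it was 0.90 and 0.82. Over the listed nuclear genes, of which 55.1% and 51.2% were higher, the median was 0.63 and 0.59. That nuclear median mixes rises and falls, so it is not a size to set beside the plastid one. Outside the inverted repeat, the 19 genes of the dark spanned log2 changes of 0.63 to 2.23, and the 14 genes of red light 0.60 to 2.48. In the mitochondrial genome, the other organelle genome, 15 genes were listed in each table, of which 11 were higher and 4 lower in the dark and 12 were higher and 3 lower under red light. In whole seedlings, more plastid RNA per cell cannot be told apart from more plastids, more genome copies per plastid or more cells that hold them.

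**Figure D1:**
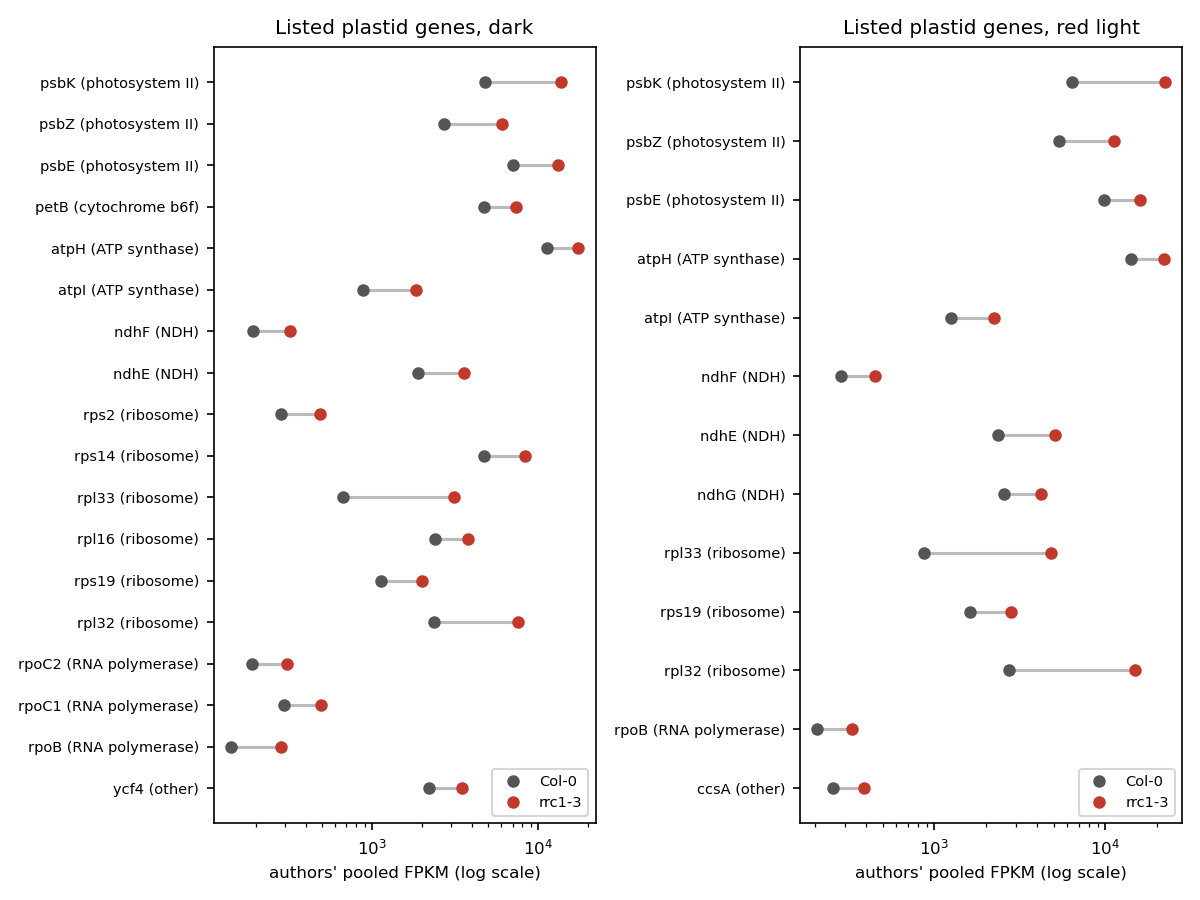
Pooled FPKM as deposited by the authors (x axis, log scale) of each listed plastid gene outside the inverted repeat (y axis, with its functional group), in the dark (left) and under red light (right); grey points are Col-0, red points rrc1-3. Every gene drawn lies to the right in rrc1-3 in both panels, 1 listed gene per panel is not drawn, and rpl33 and rpl32 show the widest gaps.

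Outside the inverted repeat, 2 genes of the plastid ribosome had the largest changes. The gene rpl33 encodes a protein of the large subunit that lies at chloroplast:67488-67688 on the plus strand. In the authors' deposited table for the dark its pooled level was 665 FPKM in Col-0 and 3112 FPKM in rrc1-3, a 4.68-fold difference (log2 2.23, q = 0.000203). Under red light the authors' deposited table gives it 866 and 4821 FPKM, a 5.57-fold difference (log2 2.48, q = 0.000333). The gene rpl32, for another large-subunit protein, lies at chloroplast:113449-113607 on the plus strand. Its level was 2370 FPKM in Col-0 and 7509 FPKM in rrc1-3 in the dark (3.17-fold), and 2724 and 14918 FPKM under red light (5.48-fold), by the authors' deposited tables. These 2 genes were the highest-changed plastid genes outside the inverted repeat in both light conditions.

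Other ribosomal protein genes changed less. In the dark 8 of the 25 annotated genes of this group were listed and under red light 5. The gene rps19, for a protein of the small subunit, rose by log2 0.82 in the dark and 0.81 under red light in the authors' deposited tables, and rps2, rps14 and rpl16 rose in the dark by log2 0.77, 0.82 and 0.65. Of these, rps19 runs from 84005 to 84283 and crosses the edge of the inverted repeat at 84171, although it is counted here as outside it. For rpl2, which sits in the inverted repeat, the authors' deposited tables give levels below 2 FPKM in both genotypes, 0.253 and 0.602 FPKM for its first copy in the dark and 0.781 and 1.81 FPKM for its second copy under red light.

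Of the photosystem genes, 0 of the 5 annotated for photosystem I were listed in either genotype table, and of the 15 for photosystem II the same 3 were listed in both, where 17.8% (dark) and 14.7% (red light) of all plastid genes were listed. These were psbK, psbZ (named YCF9 in the tables) and psbE. Each encodes a small subunit, and psbE encodes a chain of cytochrome b559. The level of psbK was 4759 FPKM in Col-0 and 13697 FPKM in rrc1-3 in the dark (2.88-fold), and 6355 and 22203 FPKM under red light (3.49-fold), in the authors' deposited tables. For psbZ the authors' deposited tables give 2697 and 6073 FPKM in the dark (2.25-fold) and 5320 and 11273 FPKM under red light (2.12-fold). For psbE they give a log2 change of 0.90 in the dark and 0.70 under red light, again from the authors' deposited tables. Large reaction-centre genes such as psbA, psbB, psbC, psbD, psaA and psaB were not in any of the 3 tables, and neither was rbcL, the gene for the large subunit of Rubisco.

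Among the ATP synthase genes, 2 of 6 were listed in both genotype tables. The gene atpH, for the ring subunit, had 11282 and 17408 FPKM in the dark (log2 0.63) and 14093 and 22128 FPKM under red light (log2 0.65) in the authors' deposited tables. The gene atpI, for the membrane subunit beside the ring, had 877 and 1839 FPKM in the dark (log2 1.07) and 1258 and 2242 FPKM under red light (log2 0.83) in the same authors' deposited tables. Of the NDH complex, which returns electrons to the plastoquinone pool, 3 of 12 genes were listed in the dark and 4 under red light. The authors' deposited tables give ndhE 1880 and 3574 FPKM in the dark (log2 0.93) and 2355 and 5064 FPKM under red light (log2 1.10). For ndhF the log2 change was 0.75 and 0.66 in the authors' deposited tables. Its rows run from 109405 to 112638 and also span the whole ycf1 copy that overlaps ndhF. They begin inside the inverted repeat, which ends at 110434, although ndhF is counted here as outside it. The gene ndhB lies in the inverted repeat, and the authors' deposited tables give it 0.113 and 0.516 FPKM in the dark (log2 2.19) and 0.237 and 0.921 FPKM under red light (log2 1.96), levels below 1 FPKM throughout. The cytochrome b6f gene petB was listed in the dark with 4735 and 7306 FPKM (log2 0.63, q = 0.0214 in the authors' deposited table), and no gene of that complex was listed under red light.

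The plastid RNA polymerase had 3 of its 4 genes listed in the dark. The genes rpoB, rpoC1 and rpoC2 encode its catalytic β-type subunits. In the authors' deposited table for the dark, rpoB had 142 FPKM in Col-0 and 283 FPKM in rrc1-3 (log2 1.00), rpoC1 had 296 and 495 FPKM (log2 0.74) and rpoC2 had 189 and 308 FPKM (log2 0.70). Under red light only rpoB of these was listed, with 207 and 332 FPKM (log2 0.68) in the authors' deposited table. The gene for the α subunit, rpoA, was in neither genotype table. No test compared the genotype difference between dark and red light, since the tables hold pooled values.

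Ribosomal RNA rows gave the largest ratios of all, at low levels. The 23S rRNA gene had 0.0328 FPKM in Col-0 and 58.8 FPKM in rrc1-3 for one copy in the dark, and 0.0150 and 36.7 FPKM for the other, in the authors' deposited table. Under red light the authors' deposited table gives the 2 copies 0.0473 and 53.7 FPKM, and 0.0377 and 26.5 FPKM, and gives 1 copy of the 16S rRNA gene 0.0378 and 35.5 FPKM. The values in Col-0 are at or near 0, so the log2 changes of 9.46 to 11.25 in the authors' deposited tables are not read as sizes. These rRNAs were the target of the depletion step and lie in the inverted repeat, and the part of either in the difference was not tested. Of 11 rRNA genes with a locus tag in RefSeq, 0 matched a row of the 3 tables by that tag. RefSeq tags of plastid genes differ from the identifiers in the authors' deposited tables. This match therefore cannot show whether rRNA genes outside the plastid changed.

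Where the listed genes lie on the genome is shown by the plot of log2 change against gene order. In the dark, 6 consecutive genes of the minus strand were all higher in rrc1-3, atpH, atpI, rps2, rpoC2, rpoC1 and rpoB, between positions 13262 and 26329. Their log2 changes in the authors' deposited table ran from 0.63 to 1.07. The next gene at lower coordinates, atpF, which lies downstream of atpH on that strand, was not listed. The other listed genes of the dark were scattered, 15 of 23 with no listed neighbour on the same strand, and under red light 15 of 19 stood alone. The genes next to rpl33 on its strand, psaJ and rps18, were not listed in either genotype table although rpl33 had the largest change outside the inverted repeat. The gene next to psbK, psbI, was likewise not listed.

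**Figure D2:**
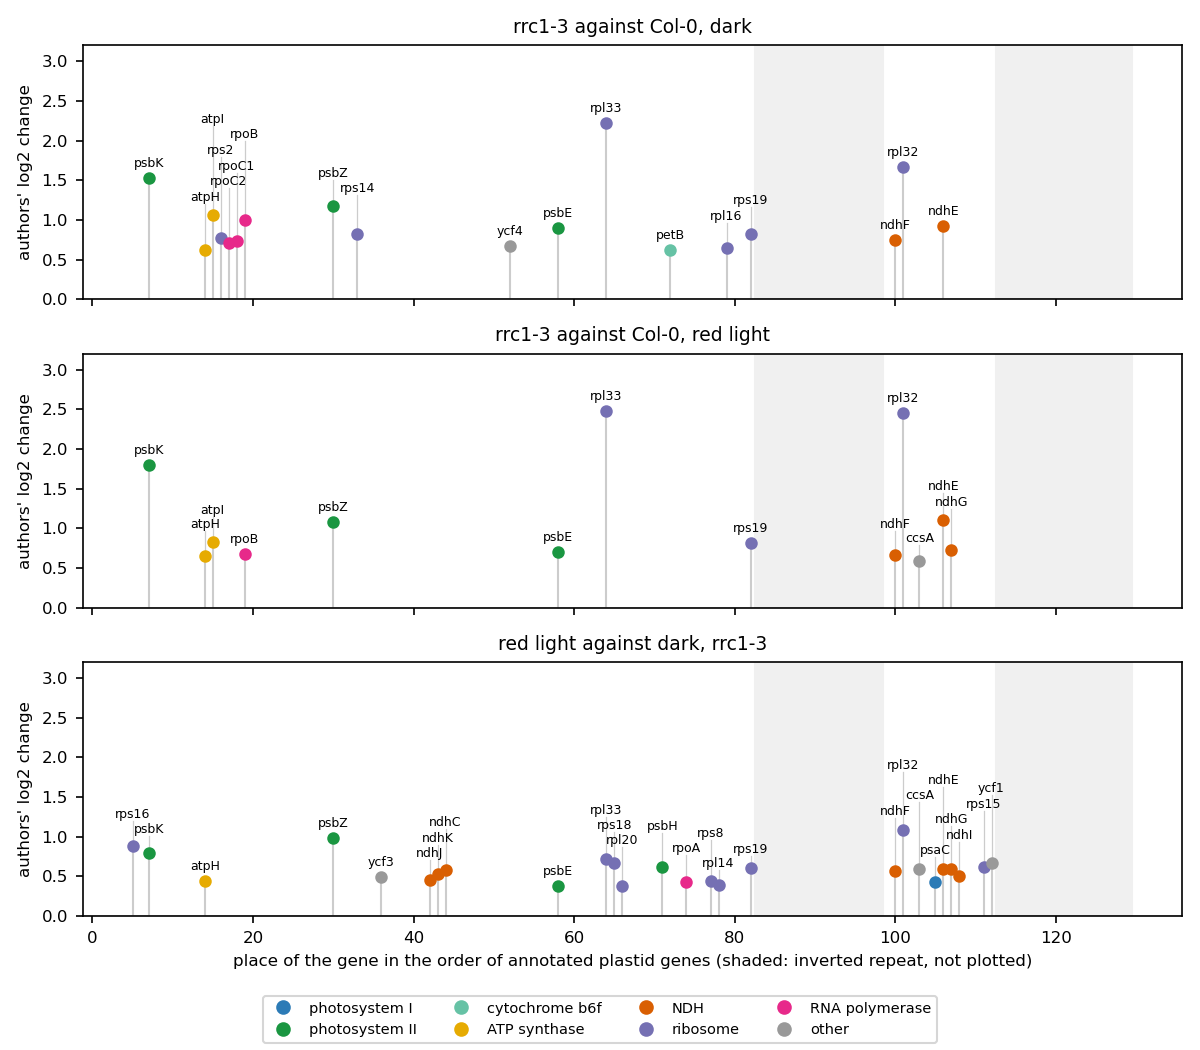
Log2 change deposited by the authors (y axis) for each listed plastid gene against its place in the order of the 129 annotated plastid genes (x axis), in the 3 comparisons; colours give the functional group and grey bands mark the inverted repeat, whose genes are not plotted; 1 listed gene outside it is not drawn. The run of 6 genes from atpH to rpoB appears in the dark panel, and rpl33 and rpl32 stand highest in the upper 2 panels.

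The median log2 change was larger over short than over longer genes. Outside the inverted repeat, 7 listed genes of up to 300 nt had a median log2 change of 1.17 in the dark and 12 longer ones 0.76, by the authors' deposited table. Under red light the medians were 1.08 over 7 short genes and 0.72 over 7 longer genes, again from the authors' deposited table. Spearman's rho between length and log2 change was -0.55 over the 19 genes of the dark and -0.67 over the 14 genes of red light. In the response to light rho was -0.28 over 26 genes, with medians of 0.62 over 10 short and 0.54 over 16 longer genes in the authors' deposited table. The short gene atpH had the smallest log2 change of the dark list (0.63 in the authors' deposited table). The genes share libraries and some share transcripts, so rho describes them only. Of the genes annotated outside the inverted repeat, tRNA genes left out, 30.4% of the short and 24.0% of the longer ones were listed in the dark, and 30.4% and 14% under red light. FPKM divides by gene length, and for genes shorter than a library's fragments it rests on the assumed fragment sizes; the part of length in these changes was not tested.

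The response to red light was deposited for the mutant only. For rrc1-3 in red light against its own dark group, the authors' deposited table lists 29 plastid genes as higher and 2 as lower, where 62.9% of all listed genes were higher and 37.1% lower. The listed genes were 24.0% of the annotated plastid genes, against 14.9% of all genes annotated. This table lists genes with an absolute log2 change from 0.29 upwards. It shares the rrc1-3 libraries with both genotype tables, so the lists are set side by side only. The 2 lower rows were both copies of the 16S rRNA gene, at 63.5 FPKM in the dark and 36.7 FPKM in red light and at 23.4 and 8.85 FPKM in the authors' deposited table.

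Most plastid genes listed in the response to light were ribosomal protein or NDH genes, which are also large groups. The share of 24.0% over all annotated plastid genes counts 37 transfer RNA genes, of which 0 were listed. Of the 25 ribosomal protein genes 11 were listed, with a median log2 change of 0.66 in the authors' deposited table, and of the 12 NDH genes 8, with a median of 0.57. The gene rpl32 had 7253 FPKM in the dark and 15385 FPKM in red light (2.12-fold) in the authors' deposited table. The gene psbZ had 5870 and 11628 FPKM (1.98-fold) in the same authors' deposited table, and psbK 13251 and 22903 FPKM (1.73-fold). For rps16, a small-subunit gene, the authors' deposited table gives 110 and 204 FPKM (log2 0.88), and for rpl33 3006 and 4971 FPKM (log2 0.73). Another 3 genes lie in the inverted repeat at levels under 4 FPKM, and the authors' deposited table gives rpl2 0.828 and 1.87 FPKM, ndhB 0.499 and 0.950 FPKM, and rps7 1.94 and 3.54 FPKM. The only photosystem I gene in any of the 3 tables was psaC, the iron-sulphur subunit, with 6140 and 8275 FPKM (log2 0.43) in the authors' deposited table.

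Neighbouring genes were listed together in the response to light as well. The genes ndhJ, ndhK (named PSBG in the tables) and ndhC lie in a row on the minus strand and had log2 changes of 0.45 to 0.58 in the authors' deposited table. The row psaC, ndhE, ndhG and ndhI, also on the minus strand, had log2 changes of 0.43 to 0.59 in the same authors' deposited table. Here rpl33 and its neighbour rps18 were both listed, and the authors' deposited table gives them log2 changes of 0.73 and 0.66. Of the 31 listed genes, 13 had a listed neighbour on the same strand and 18 had none. None of the 3 large polymerase genes was listed, whereas rpoA was, with a log2 change of 0.43 (q = 0.0449) in the authors' deposited table.

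Both genotype tables and the light table held 10 plastid genes in common, psbK, atpH, psbZ, psbE, rpl33, rps19, ndhB, ndhF, rpl32 and ndhE, and another 17 were listed in the response to light alone. Levels of 1 gene across the 4 groups come from tables scaled separately, by factors that differed by 1.04 for rrc1-3 dark and 0.972 for rrc1-3 red light between the light table and the genotype tables. For rpl32 the levels side by side were 2370 FPKM in Col-0 dark, 2724 FPKM in Col-0 red light, 7509 FPKM in rrc1-3 dark and 14918 FPKM in rrc1-3 red light in the authors' deposited genotype tables. For rpl33 they were 665, 866, 3112 and 4821 FPKM in the same order, from the authors' deposited tables. In both genes the order was Col-0 dark, Col-0 red light, rrc1-3 dark, rrc1-3 red light. The spread behind this order is unknown, and Col-0 in light was not compared with Col-0 in the dark in the tables used here.

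Nuclear genes whose products run plastid gene expression were read from 3 lists. Their counts stand beside the 14.7%, 10.5% and 14.9% of all annotated genes that were listed in the dark, under red light and in the response to light, of which 55.3%, 51.6% and 62.9% were higher. Of 21 genes for plastid transcription (sigma factors, the phage-type polymerases and proteins bound to the plastid polymerase), 14 were higher in rrc1-3 in the dark and 1 was lower, against 2 higher and 2 lower under red light. In the dark the largest changes were those of FSD2, FSD3, PTAC2 and SIG1, whose log2 changes the authors' deposited table gives as 1.31, 1.31, 1.29 and 1.07, and the 1 lower gene was SIG5 (log2 -0.75 in the authors' deposited table). Under red light FSD2 and PTAC2 were higher (log2 1.18 and 0.76) and PRIN2 and RPOTmp lower (log2 -0.98 and -0.72) in the authors' deposited table. In the light response of rrc1-3, 10 of the 21 were higher and 0 lower, led by SIG5, a light-induced sigma factor, which went from 1.27 to 52.7 FPKM (log2 5.37) in the authors' deposited table.

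Of 25 nuclear genes of the plastid ribosome, 21 were higher in rrc1-3 in the dark and 0 lower, with a median log2 change of 1.04 over the listed ones in the authors' deposited table. Led by PRPL10, which went from 22.1 to 71.9 FPKM (log2 1.70) in the authors' deposited table, they stood beside plastid-encoded ribosomal genes with a median of 0.96 over the 8 listed. Under red light 6 of the 25 were higher and 0 lower, with a median log2 change of 0.66 in the authors' deposited table. In the response to light 20 were higher and 0 lower. Over all listed genes the share higher in the dark was 55.3%, as given above.

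Of 25 nuclear genes for plastid RNA splicing and processing, 10 were higher in the dark in rrc1-3, 2 under red light and 13 in the response to light, and 0 were lower in any of the 3 tables. The 2 of 25 under red light were no larger a share than the 10.5% of all annotated genes listed there. In the dark the largest changes were those of CSP41A, CSP41B, CFM3B and RH3, whose log2 changes the authors' deposited table gives as 2.49, 1.61, 1.45 and 1.34. CSP41A and CSP41B bind and stabilise plastid RNAs, CFM3B belongs to the CRM domain family of intron-binding proteins, and RH3 is a DEAD-box helicase needed for splicing of several plastid introns. Under red light the 2 listed genes were CFM3B (log2 1.19) and CSP41A (log2 0.77) in the authors' deposited table. CAF1, a factor for group II introns, rose in the dark (log2 0.73 in the authors' deposited table) and was not listed under red light, nor was CRS1, the factor for the atpF intron, in any table.

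Introns of plastid genes are group II introns apart from one in a transfer RNA gene, and group II introns typically start with GTGNG, where N is any base. RefSeq annotates 25 plastid introns, 17 of them in protein-coding genes and 8 in transfer RNA genes. The 6 listed ones lie in petB (chloroplast:74847-75650, plus strand), petD (chloroplast:76489-77197, plus strand), clpP (chloroplast:70945-71811, minus strand, intron 1 of 2), atpF (chloroplast:11939-12653, minus strand), rpoC1 (chloroplast:21862-22652, minus strand) and ndhA (chloroplast:120377-121456, minus strand). All 6 had the start and end that RefSeq gives for TAIR10.1. Their boundaries are shown because retention was read at them, from RefSeq's TAIR10.1 sequence, 5′ to 3′ on the gene's strand. The first set holds the 10 bases before the intron and 20 intron bases, with the first 5 intron bases in capitals. In petB and petD the annotated first exon is shorter than 10 bases, so the first bases shown lie before it.
petB intron, 5′ end: gaatatgagtGTGTGacttgttagaattga
petD intron, 5′ end: ttatgggagtGTGTGacttgaactattgat
clpP intron, 5′ end: ttgacatataGTGCGacttgtcagatatat
atpF intron, 5′ end: aagggagtgtGTGTGagttgttcatttcaa
rpoC1 intron, 5′ end: atactgcgatGTGTGatttgatcgaaattt
ndhA intron, 5′ end: atatctctacGTGCGattcgttgaaacaga
The second set holds the last 40 intron bases, the final 2 of them in capitals, and 10 exon bases.
petB intron, 3′ end: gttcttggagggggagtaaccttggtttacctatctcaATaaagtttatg
petD intron, 3′ end: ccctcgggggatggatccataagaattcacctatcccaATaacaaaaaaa
clpP intron, 3′ end: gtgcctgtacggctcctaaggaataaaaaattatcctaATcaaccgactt
atpF intron, 3′ end: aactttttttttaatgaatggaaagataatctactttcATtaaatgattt
rpoC1 intron, 3′ end: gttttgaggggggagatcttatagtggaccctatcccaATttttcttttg
ndhA intron, 3′ end: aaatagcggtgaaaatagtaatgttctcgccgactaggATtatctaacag

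All 6 listed introns began with GTGNG, as did 12 of the 17 introns of protein-coding genes (70.6%). Per kilobase and strand, the plastid genome holds 1.42 such stretches, read on both strands. All 6 also ended in AT. Of the 25 annotated introns 7 began with GT and ended with AT, and 6 of these 7 were listed, the remaining one lying in the transfer RNA gene trnK. Of the 18 introns with other ends 0 were listed. The 6 unlisted introns of protein-coding genes with the same start all ended in AC, among them introns of ycf3 (chloroplast:42737-42766), rpl16 (chloroplast:81588-81617) and ndhB (chloroplast:95703-95732), whose last 30 bases on the minus strand of RefSeq's TAIR10.1 sequence are shown with the final 2 in capitals.
ycf3 intron, 3′ end, not listed: cagggagggaattgatccgcctattccgAC
rpl16 intron, 3′ end, not listed: aatttctaatttagaaccatcaactataAC
ndhB intron, 3′ end, not listed: gaagtgaggaatcctcttttcgactctgAC
An intron with the ends GT and AT reads as AT and AC on the other strand, which is one of the pairs of intron ends that TopHat2 searches for without an annotation. The part of this in which introns were listed was not tested, and an intron that was not listed may have changed as much.

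Retention was computed per library as the mean of the reads over the 5′ and 3′ boundaries divided by that mean plus the spliced reads. It was higher in rrc1-3 under red light in 4 of the 6 introns, those of clpP, petB, petD and atpF, and was lower in 0, by edgeR's quasi-likelihood test with Benjamini-Hochberg adjustment over all 5660 listed features with complete reads. Among all these features 37.3% were higher and 20.3% lower in rrc1-3 by the same test. A feature entered the table through the authors' test on the same libraries, so these tests are not independent of the listing. Plastid introns were deeply covered, with a median of 70299 reads per library against 157 for listed nuclear introns. Over the 5264 listed nuclear introns the median log2 change in the odds of retention was 0.61.

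The intron of petB, a gene for cytochrome b6, was retained at 36.0%, 33.3% and 34.7% in the Col-0 libraries X1, X2 and X3 (the column numbers) and at 56.3%, 55.0% and 53.3% in the rrc1-3 libraries X4, X5 and X6. The group means were 34.7% ± 1.35 and 54.9% ± 1.49 (SD, n = 3 each), and all rrc1-3 libraries stood above all Col-0 libraries. The log2 change in the odds of retention was 1.19 ± 0.14 (SE), with an adjusted p of 1.26e-06 by edgeR. Both ends moved alike, from 35.1% to 55.0% at the 5′ boundary and from 34.3% to 54.7% at the 3′ boundary.

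The first intron of clpP, the gene for a subunit of the plastid Clp protease, was retained at 16.1%, 14.9% and 18.1% in Col-0 and at 32.7%, 38.6% and 38.2% in rrc1-3. The means were 16.3% ± 1.61 and 36.5% ± 3.28 (SD, n = 3 each), and the groups did not overlap. The log2 change in odds was 1.56 ± 0.15 (SE; edgeR adjusted p = 1.81e-07), the largest among the 5 introns with spliced reads in every library. Its 2 ends moved by different amounts. Retention at the 3′ boundary went from 19.3% ± 1.74 to 46.6% ± 3.90, and at the 5′ boundary from 13.2% ± 1.49 to 21.6% ± 1.67 (SD, n = 3 each).

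The intron of petD, for subunit IV of the b6f complex, was retained at 18.1%, 19.3% and 19% in Col-0 and at 44.8%, 29.4% and 28.5% in rrc1-3. Library X4 stood apart from the other 2 rrc1-3 libraries, and all 3 lay above Col-0. The means were 18.8% ± 0.66 and 34.2% ± 9.19 (SD, n = 3 each), with a log2 change in odds of 1.14 ± 0.20 (SE; edgeR adjusted p = 0.000141). Without X4 the rrc1-3 mean was 28.9% ± 0.66 (SD, n = 2) and the log2 change 0.82. In X4 the gene had 21081 spliced reads, against 59291 and 83576 in X5 and X6.

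The intron of atpF, for a subunit of the ATP synthase stalk, was retained at 14.4%, 16.3% and 14.2% in Col-0 and at 21.0%, 20.3% and 19.3% in rrc1-3. The means were 15.0% ± 1.14 and 20.2% ± 0.86 (SD, n = 3 each), without overlap. The log2 change in odds was 0.52 ± 0.14 (SE; edgeR adjusted p = 0.0044). With limma on the logit of the shares the adjusted p was 0.0793, above the threshold of 0.05.

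The other 2 introns did not pass. That of rpoC1 was retained at 40.0%, 40.2% and 39.7% in Col-0 and at 44.7%, 44.0% and 42.0% in rrc1-3. These groups did not overlap either, but the log2 change of 0.21 ± 0.15 (SE) had an edgeR adjusted p of 0.183. At its 5′ boundary alone retention went from 25.1% to 32.1% (log2 change in odds 0.50 ± 0.16, SE; edgeR adjusted p = 0.0136), while at the 3′ boundary the groups overlapped, at 49.9% and 51.7%.

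The intron of ndhA, a gene of the NDH complex, had the highest retention of the 6 and was retained at 64.4%, 100% and 65.95% in Col-0 and at 59.95%, 60.3% and 58.5% in rrc1-3. Col-0 library X2 had 0 spliced reads there beside 5575 and 13483 boundary reads, whereas X1 and X3 had 5177 and 6480 spliced reads. In all, 4 features had 0 spliced reads in 1 library and over 100 in each of the other 5. With X2 the log2 change in odds was -1.85 ± 1.17 (SE; edgeR adjusted p = 0.158). Without X2 it was -0.34 ± 0.13 (SE; edgeR adjusted p = 0.039), with means of 65.2% ± 1.11 (SD, n = 2) and 59.6% ± 0.97 (SD, n = 3). It also passed without X1 (log2 -3.99, adjusted p = 0.0307 by edgeR) and without X3 (log2 -3.97, adjusted p = 0.0431 by edgeR). Both of these fits keep X2 with its 0 spliced reads as 1 of 2 Col-0 libraries, so their changes are not read as sizes.

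Retention did not overlap between the genotypes in any of the 6 introns, 5 being higher and ndhA lower in rrc1-3. Over the listed features with a value in every library, 42.9% were higher without overlap and 24.3% lower without overlap. The authors' deposited splicing table calls all 6, with adjusted p-values of 6.6e-05 for rpoC1 and 1.23e-11 for ndhA, the 2 that did not pass above. The log2 change deposited beside these p-values was -0.25 for petB and -0.21 for atpF, opposite in sign to their retention. In the other introns it had the sign of the retention change. The deposited p-values may thus measure something other than retention, and are not set against the tests above. The points of the plot of retention by library show wide gaps between the genotypes for petB, clpP and petD and a narrow one for rpoC1.

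**Figure D3:**
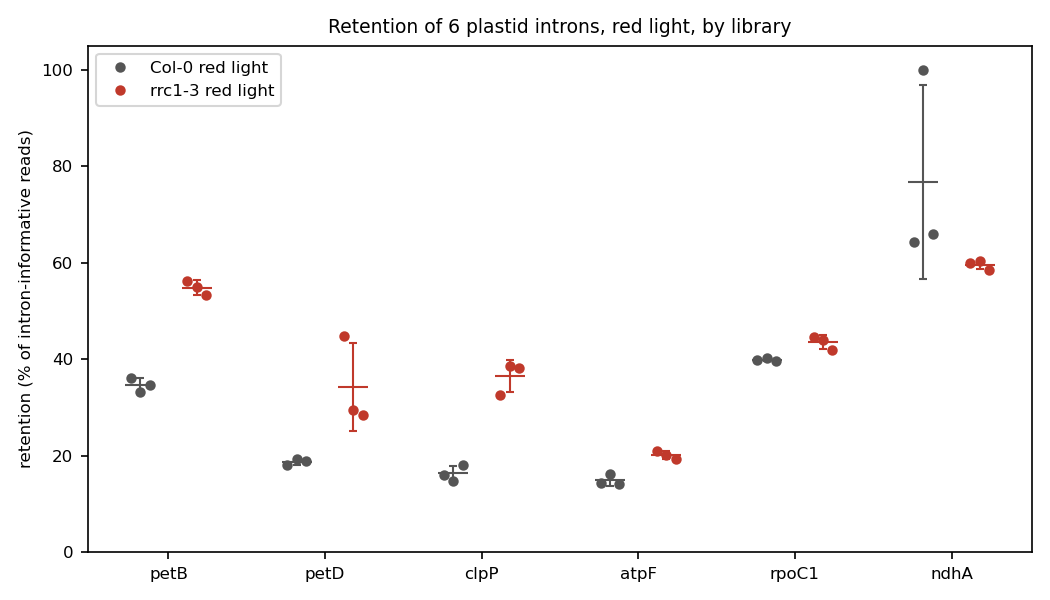
Retention of 6 plastid introns under red light (y axis, % of the reads informative for the intron) in each library; grey points are the 3 Col-0 libraries and red points the 3 rrc1-3 libraries, with mean and SD. Both groups are apart in all 6 introns, petD has 1 rrc1-3 library at 44.8%, and ndhA has 1 Col-0 library at 100%.

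Spliced and unspliced reads were then read separately, since a share can rise through either. Levels are given in RPM, reads scaled to the total of the listed features outside the plastid in the same library. Spliced reads of clpP were 25563, 24373 and 25204 RPM in Col-0 and 14427, 14012 and 19811 RPM in rrc1-3. Those of petB were 28079, 27526 and 33707 RPM in Col-0 and 13645, 18808 and 26166 RPM in rrc1-3. Both fell without overlap, clpP by 0.81 ± 0.18 and petB by 0.78 ± 0.23 on the log2 scale (SE; edgeR adjusted p = 0.0020 and 0.0101, TMM over all listed features). They were 2 of the 6 introns, and 28.9% of all listed features were lower and 26.3% higher by the same test. Spliced reads rose without overlap in rpoC1, from a mean of 2091 to 3379 RPM. They also rose without overlap in ndhA, from 4116 RPM without the Col-0 library X2 to 6716 RPM. Neither rise passed the main test, and in atpF and petD the groups overlapped. The petB call was lost without X1, X3 or X5 (adjusted p up to 0.0819 by edgeR), and that of clpP held without each library.

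Boundary reads passed as higher in 4 of the 6 introns, where 24.4% of all features were higher and 19.6% lower by the same test. The log2 changes by edgeR were 0.56 ± 0.21 for atpF, 0.67 ± 0.19 for rpoC1, 0.71 ± 0.21 for clpP and 0.73 ± 0.23 for petD (SE; adjusted p = 0.0373, 0.00813, 0.0112 and 0.0146). For petB the change was 0.35 ± 0.24 (SE; edgeR adjusted p = 0.242) and for ndhA 0.19 ± 0.22 (SE; edgeR adjusted p = 0.495). These counts moved with single libraries, since 0 of 6 passed without X2, 1 without X1 and 2 without the rrc1-3 library X5.

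**Figure D4:**
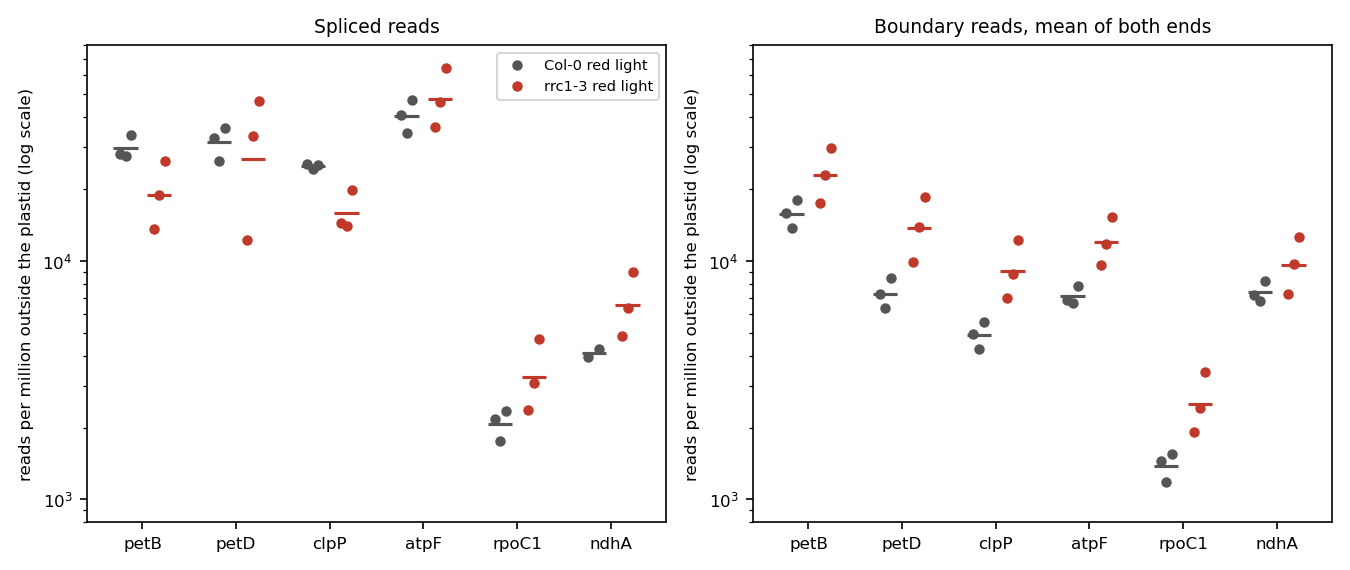
Spliced reads (left) and boundary reads, the mean of both ends (right), of each plastid intron in RPM of listed features outside the plastid (y axis, log scale), by library; grey is Col-0 and red rrc1-3 under red light, lines are geometric means, and the ndhA library with 0 spliced reads is not drawn. Spliced reads lie lower in rrc1-3 for petB and clpP and higher for rpoC1 and ndhA. Boundary reads lie higher in rrc1-3 for petD, clpP, atpF and rpoC1.

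The summed reads of an intron, spliced and over both boundaries, give a value in every library, which the expression tables do not. An unspliced transcript can be counted at both boundaries and a spliced one only once. The sum therefore also rises with retention, and is not a measure of level alone. Only rpoC1, of the 6, passed as higher in rrc1-3 under red light, at 5049, 4111 and 5449 RPM in Col-0 and 6211, 7882 and 11507 RPM in rrc1-3. The log2 change was 0.61 ± 0.20 (SE; edgeR adjusted p = 0.0191), and 26.5% of all features were higher and 27.7% lower by this test. The call was lost without X1, X2 or X6, where the adjusted p reached 0.0863 by edgeR. The ratio of mean RPM in rrc1-3 to Col-0 was 1.75 for rpoC1, 1.51 for ndhA and 1.34 for atpF. It was 1.27 for petD, 1.08 for petB and 0.998 for clpP. For clpP the same ratio was 0.642 in spliced reads and 1.90 in boundary reads, and for petB 0.656 and 1.48. A sum near its Col-0 value is thus not read as an unchanged level. None of the 6 genes stood in the authors' deposited expression table for red light, and the summed reads of clpP and petB had log2 changes of -0.20 ± 0.20 and -0.08 ± 0.22 (SE; edgeR adjusted p = 0.412 and 0.778). The 6 introns held 16.1% to 19.9% of the reads of listed features in the Col-0 libraries and 16.0% to 26.2% in the rrc1-3 libraries, so the groups overlapped.

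The balance of the 2 ends passed the edgeR test in 3 introns, those of clpP, rpoC1 and atpF. The ratio of 3′ to 5′ boundary reads in clpP was 1.51, 1.65 and 1.57 in Col-0 and 2.98, 3.35 and 3.23 in rrc1-3, with means of 1.58 ± 0.07 and 3.18 ± 0.19 (SD, n = 3 each). The log2 change of the ratio was 1.01 ± 0.06 (SE; edgeR adjusted p = 2.01e-09). In rpoC1 the ratio went the other way, from 2.98 ± 0.18 to 2.26 ± 0.09 (SD, n = 3 each; log2 -0.40 ± 0.07, SE; edgeR adjusted p = 0.0012), and in atpF from 1.03 ± 0.06 to 0.89 ± 0.02 (SD, n = 3 each; log2 -0.20 ± 0.06, SE; edgeR adjusted p = 0.0262). The groups did not overlap in these 3 introns, and overlapped in petB, petD and ndhA. Counted by coordinate, 5.25% of all listed features passed in one direction and 5.0% in the other. Most of those features had far fewer reads, with a median of 157 per library in nuclear introns against 70299 in plastid ones. The shares are thus not set against the plastid count as like with like. With limma on the logit 0 of the 6 passed (clpP adjusted p = 0.097), and with DESeq2 only clpP did. By edgeR the atpF call was also lost without X1, X3, X5 or X6 (adjusted p up to 0.141), while those of clpP and rpoC1 held without each library.

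**Figure D5:**
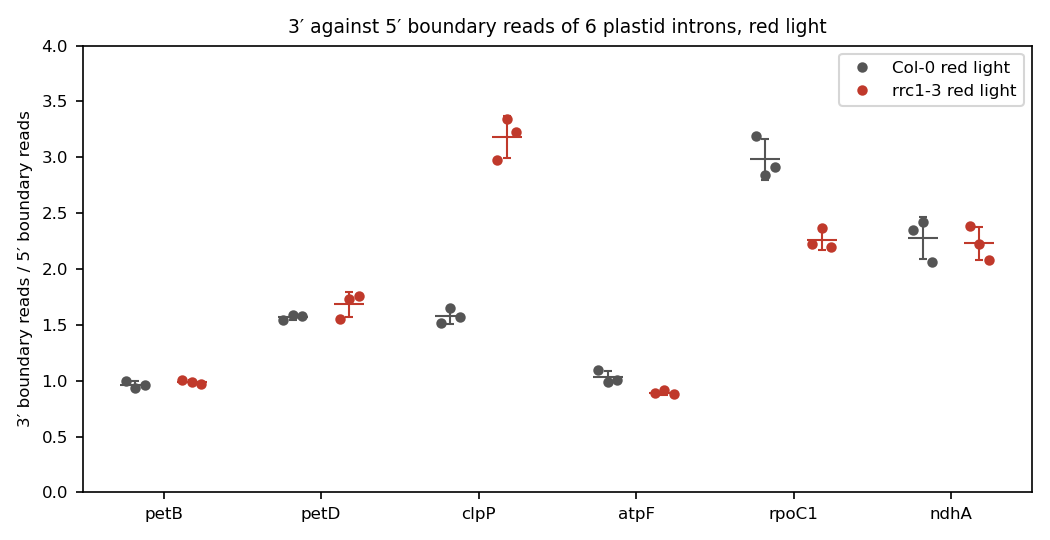
Ratio of reads over the 3′ boundary to reads over the 5′ boundary (y axis) of 6 plastid introns under red light, by library; grey points are Col-0, red points rrc1-3, with mean and SD. The clpP ratio lies near 1.58 in Col-0 and 3.18 in rrc1-3, and rpoC1 lies lower in rrc1-3.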

How the data were processed

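Each deposited expression table, laid out as Cuffdiff output, holds 1 FPKM value per group, a log2 change, a test score, and p-values and q-values, all made by the authors, per the file headers. Reads were aligned with TopHat2 to TAIR10, per the submitters' processing notes; versions and the counting step are not given in the sources used here. Only called genes are listed, so the number tested is unknown.

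The splicing tables hold counts of reads over the lower- and higher-coordinate boundary and of spliced reads per library, with pooled fractions, a log2 change, p-values and adjusted p-values deposited by the authors; listed features have an adjusted p up to 0.05 and differ in fraction by at least 0.03. Which boundary is which was settled from intron pairs sharing an edge. The authors' fractions were recomputed from the counts within 1e-05 for 99.98% of features. Of 6003 red-light features, 343 with missing reads were left out. The tests of summed reads covered 5651 features after filterByExpr.

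Tests used edgeR 4.0.16 (quasi-likelihood; library term, read class and its interaction with genotype; TMM for levels) in R 4.3.3, with Benjamini-Hochberg adjustment over all listed features and a threshold of 0.05; limma 3.58.1 and DESeq2 1.42.0 were alternatives. The unblocked edgeR tests of retention and of summed reads were run on simulated reads beforehand; the other fits were not. Column names give the group, and their numbers X1 to X6 run over both groups; X4 to X6 were taken as libraries 1 to 3 of rrc1-3, an assumption on which only the replicate block depends. Counts per library over listed features were 1592508 to 2424940, which is part of each library. No more than 3.16% of features had equal spliced reads in 2 libraries of a group. Functional groups follow the gene symbol, neighbours the RefSeq order, and symbols the RefSeq names; 66 of 73 listed rows had the RefSeq start and end. Values are given in full for the 8 listed genes with the largest log2 change per table and for every plastid intron, and for up to 4 genes per nuclear list and table; other plastid genes are named since all are members. CAF1, CRS1 and the genes of the large photosystem subunits were named after their values were seen. Members and lists were chosen with earlier results of these data known. One listed plastid gene, included in the counts and medians, is not reported here by name.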

Additional observations from a re-analysis of the deposited data

How the results depend on the processing

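No plastid gene turned lower in the genotype tables when the call was changed. With an absolute log2 change of at least 1, 10 genes were left in the dark, 10 under red light and 3 in the response to light (2 higher, 1 lower). The other 4 settings per table kept 19 to 21, 14 to 19 and 21 to 29 genes. Of the 6 introns, 3 to 5 passed for retention in every setting, 4 to 5 when 1 library was left out. For summed reads 1 intron passed in the main test, 2 with library totals and no TMM (rpoC1 and ndhA), and 0 to 3 without 1 library. For spliced reads 1 to 3 passed and for boundary reads 0 to 5 passed without 1 library. For the boundary ratio 2 to 3 passed without 1 library (atpF being the call lost), 1 with DESeq2 and 0 with limma. Signs turned only for changes that had not passed: the summed reads of petB were 0.0459 (log2) without TMM and -0.31 to 0.10 without 1 library, those of atpF -0.0039 to 0.38 and those of petD -0.19 to 0.45 without 1 library, the spliced reads of petD 0.0252 without TMM and -0.64 to 0.19 without 1 library, those of atpF -0.14 to 0.30, and the boundary ratio of ndhA -0.10 to 0.019. The causes were not tested. The tests by 1 boundary, on spliced or boundary reads alone, of the boundary ratio and with library sizes from outside the plastid were chosen after seeing the data. With a replicate block, on the assumed numbering, 4 introns passed for retention, 1 for summed reads, 3 for spliced reads (rpoC1 added, log2 0.47, adjusted p = 0.0278 by edgeR), 4 for boundary reads and 3 for the boundary ratio; libraries with the same number correlated at -0.0348 to -0.0124 in retention and -0.0139 to 0.159 in reads after the group means were removed, so numbers were not treated as pairs. The splicing and read tests for the dark and the response to light were not run for plastid introns, which those tables do not list. Pooled FPKM allows no leave-one-out test, and depth is unknown for it.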
